A study of Mus musculus with 5 samples.

Results

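Chemokines are small secreted proteins that steer migrating cells, and they act through G protein-coupled receptors. The families are named for the spacing of their first cysteines: CC (Ccl genes, read by Ccr receptors), CXC (Cxcl and Cxcr), CX3C (Cx3cl1 and Cx3cr1) and XC (Xcl1). In the gut some ligands are made steadily by epithelium and stroma and place lymphocytes and macrophages in the mucosa, whereas others are induced by injury or microbes. The genes described here are those whose symbol carries one of these family names with a number, taken from the probe sets that the array's annotation gives to 1 gene. They were 65 probe sets for 48 genes (32 ligands and 16 receptors), of 22626 probe sets and 12393 genes in all. Where a gene had several probe sets, the one with the highest mean over the arrays was used. The receptor-like gene Ccr1l1 falls under the naming rule and was kept.

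RNA from 2 pools, each of several C57BL/6 mice, was mixed: whole mouse at 1 day of age and colon at 8 weeks. The colon shares were 0%, 25%, 50%, 75% and 100%, and 10 ng of each mix was amplified in 2 rounds by T7 polymerase and put on 1 Affymetrix mouse array. There were 5 arrays and no replicate of any mix, so all p-values measure the scatter of these arrays around a straight line and not the spread between mice. Age and tissue differed together between the pools and cannot be told apart, and in such bulk RNA fewer cells of a type and less RNA per cell cannot be told apart either. The deposited values are log2 signals made with RMA, and values below are given in order of rising colon share. A gene "rose" or "fell" when its slope on colon share passed limma's moderated test at a Benjamini-Hochberg adjusted p of 0.05 over all probe sets. The slope is the fitted log2 difference of colon minus whole mouse. A linear mix of 2 RNAs follows a curve in log2 signal, and the scatter around the line includes that curve. The curve is strongest for large differences, so a p above the threshold does not mean a small difference.

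The array medians lay between 6.83 and 6.92. All 6 markers listed for colon epithelium were at least 2-fold higher in undiluted colon, and all 4 of liver, 4 of skeletal muscle and 5 of keratinocytes were at least 2-fold lower. In the order named, 2, 2, 1 and 2 of them passed the limma test. The lists were chosen with earlier results of these data known.

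Of the 48 genes, 3 rose, 5 fell and 40 did not pass. Among all genes, each by its brightest probe set, 24.3% passed, with 9.80% of all genes rising and 14.5% falling. Over all probe sets 19.5% passed. The members' 8 calls (16.7%) were thus a smaller share than that of all genes. The median slope was 0.01 over the members and −0.01 over all genes. By size alone, 2 members were at least 2-fold higher in undiluted colon (9.26% of all genes were) and 4 at least 2-fold lower (10.4% of all genes were). With the arrays centred on their medians these counts were 3 and 2. Most members were dim. In 31 of 48 the signal lay below the array's median on every array, against 31.4% of all genes, and 17 had a mean signal below 5.47, the level under which 25% of all probe sets lie.

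**Figure D1:**
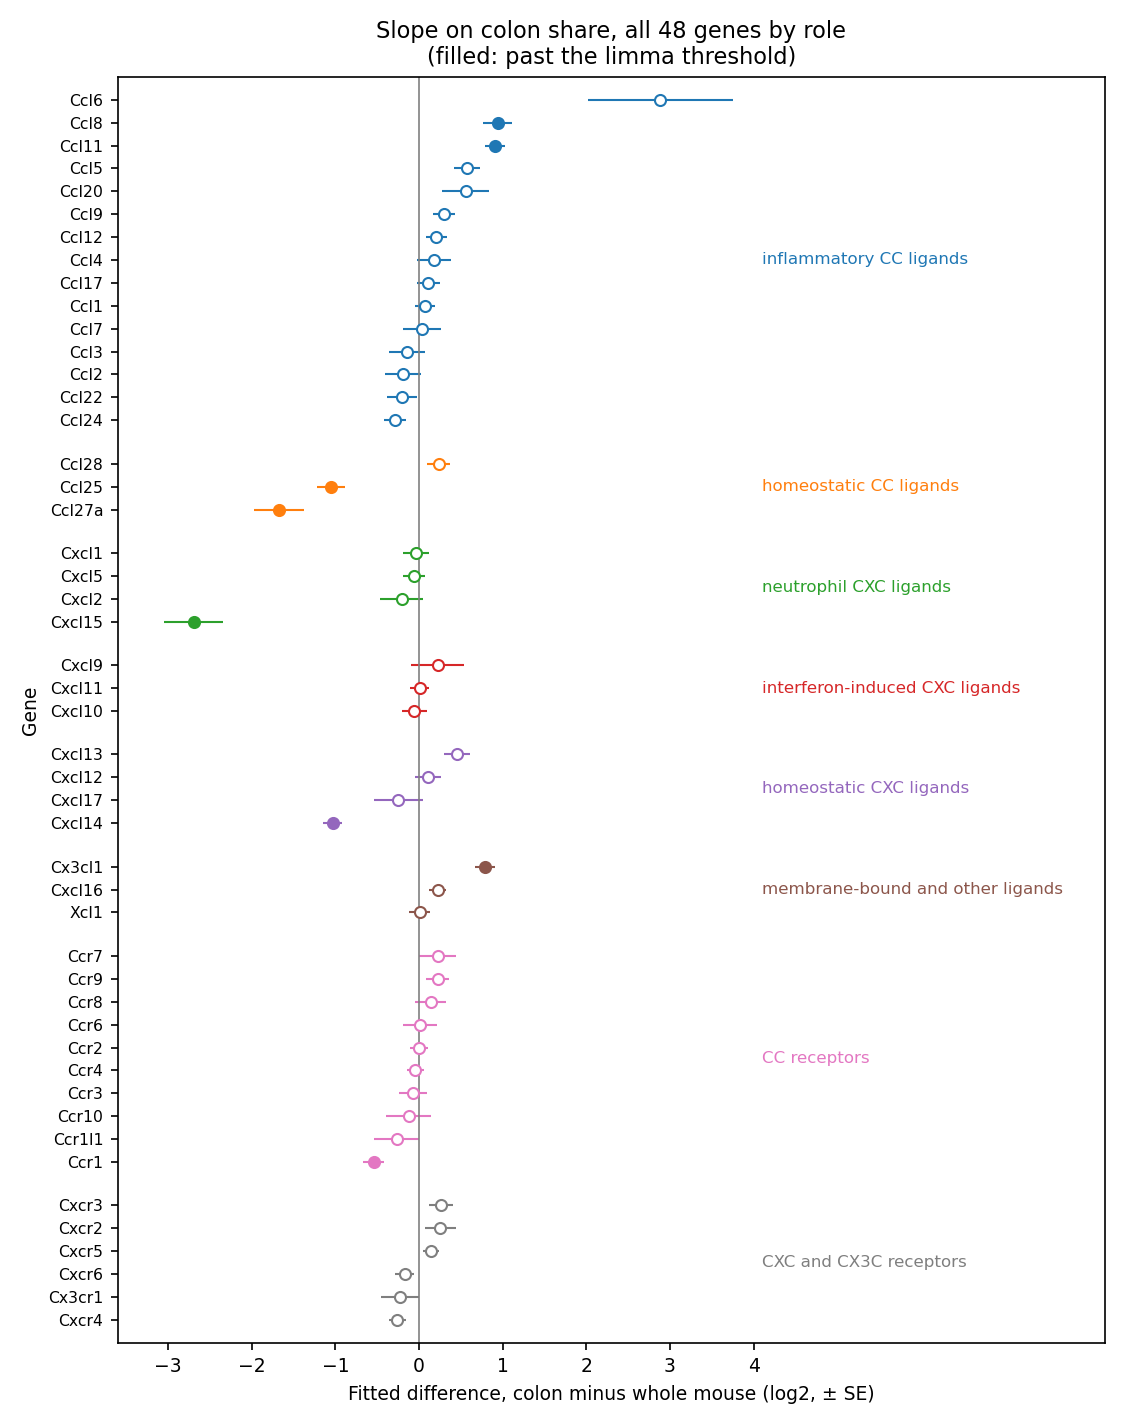
Fitted difference between colon and whole mouse (log2, horizontal axis, bars ± SE from limma) for each of the 48 genes (vertical axis), grouped by role; filled points passed the test. The 8 filled points are spread over 6 of the 8 roles, and the receptors lie between −0.54 and 0.26.

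The stretches around the transcription start of 5 ligands that the results turn on are shown here. They are the strongest falls among homeostatic and neutrophil-type CXC ligands (Cxcl14, Cxcl15), a pair of ligands that rose (Ccl8, Cx3cl1), and the gene with the largest difference (Ccl6). Each runs from 250 bases before to 50 after the start, from RefSeq on GRCm38.p6, read 5′ to 3′ on the gene's strand. They lie at chr13:56296502-56296801 (minus), chr5:90794284-90794583 (plus), chr11:82114935-82115234 (plus), chr8:94771930-94772229 (plus) and chr11:83593038-83593337 (minus) in the order named. Capitals mark matches to any of 4 motifs searched on both strands: the TATA box (TATAAA), AP-1 (TGANTCA), the STAT site GAS (TTCNNNGAA) and the NF-kB consensus.
Cxcl14: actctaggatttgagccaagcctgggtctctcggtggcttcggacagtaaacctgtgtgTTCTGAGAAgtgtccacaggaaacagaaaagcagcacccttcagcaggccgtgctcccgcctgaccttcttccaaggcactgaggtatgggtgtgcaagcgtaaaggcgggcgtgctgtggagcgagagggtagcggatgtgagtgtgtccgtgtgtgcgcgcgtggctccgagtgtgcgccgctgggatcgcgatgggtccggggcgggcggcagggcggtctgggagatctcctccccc
Cxcl15: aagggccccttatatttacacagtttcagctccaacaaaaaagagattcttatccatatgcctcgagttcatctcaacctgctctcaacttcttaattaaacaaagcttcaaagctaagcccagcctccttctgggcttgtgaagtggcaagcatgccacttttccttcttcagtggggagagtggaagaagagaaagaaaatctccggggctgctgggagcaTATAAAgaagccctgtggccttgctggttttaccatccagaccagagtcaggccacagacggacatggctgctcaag
Ccl8: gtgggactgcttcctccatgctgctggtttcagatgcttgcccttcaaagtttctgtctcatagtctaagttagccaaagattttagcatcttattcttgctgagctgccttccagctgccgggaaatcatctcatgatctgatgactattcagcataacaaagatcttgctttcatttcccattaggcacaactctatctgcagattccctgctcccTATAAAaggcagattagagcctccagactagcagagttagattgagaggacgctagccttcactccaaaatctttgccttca
Cx3cl1: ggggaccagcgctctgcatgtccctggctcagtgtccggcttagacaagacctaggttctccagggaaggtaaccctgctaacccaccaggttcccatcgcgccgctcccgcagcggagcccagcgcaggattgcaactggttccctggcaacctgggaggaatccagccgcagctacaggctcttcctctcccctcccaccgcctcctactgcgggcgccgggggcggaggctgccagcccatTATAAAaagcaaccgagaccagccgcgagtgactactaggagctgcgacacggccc
Ccl6: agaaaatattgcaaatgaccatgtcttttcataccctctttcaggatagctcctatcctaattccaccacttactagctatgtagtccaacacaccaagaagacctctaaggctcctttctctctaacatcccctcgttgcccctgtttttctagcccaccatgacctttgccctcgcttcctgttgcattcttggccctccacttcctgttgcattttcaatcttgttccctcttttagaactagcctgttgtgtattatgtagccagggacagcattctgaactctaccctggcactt

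The windows of Cxcl15, Ccl8 and Cx3cl1 each hold 1 TATA box, that of Cxcl14 holds 1 GAS, and that of Ccl6 holds none of the 4. No matches of different motifs overlap in these windows. RefSeq's table had windows for 35 of the 48 genes, 39 in all. The TATA box was in 10 of these 39 and in 13.6% of all 32851 windows of the same length. The NF-kB consensus was in 10 of the 39 and in 8.46% of all windows. AP-1 was in 8 (7.81% of all) and GAS in 4 (8.30% of all). A match is only a run of letters, and nothing about binding was measured.

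Ccl6 had the largest difference of any member. It is a chemokine of myeloid cells that attracts macrophages. Its signals were 9.12, 11.80, 11.96, 12.21 and 12.52, so undiluted colon stood 3.40 log2 above whole mouse and every step went up. The fitted slope of 2.89 (SE 0.87) did not pass the limma test (adjusted p = 0.0795), and 2.68 log2 of the difference lay between whole mouse and the 25% mix. Its dimmer probe set gave 7.09, 9.75, 10.26, 10.43 and 10.93, with a slope of 3.35 (SE 0.84, adjusted p = 0.053). In log2 signal the 25%, 50% and 75% mixes lay 0.92, 0.30 and 0.06 above a linear mix of the undiluted RNAs. On the linear scale the 25% mix had already reached 56.4% of the difference, the 50% mix 64.2% and the 75% mix 78.4%. Over the 1148 genes at least 2-fold higher in colon, the median shares were 43.1%, 62.6% and 74.6%. Without the whole mouse array the slope of Ccl6 was 0.97 and passed (adjusted p = 0.042), and with the arrays centred on their medians it was 2.97 (adjusted p = 0.047).

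Of the 15 inflammatory CC ligands, Ccl6 included, 2 rose and none fell, and Ccl6 and Ccl8 were the ones at least 2-fold higher in undiluted colon. Ccl8, a monocyte and T cell attractant, had signals of 6.98, 7.46, 7.35, 7.78 and 7.99. Whole mouse was lowest and colon highest, with the 25% and 50% mixes out of order, and the slope was 0.94 (SE 0.17, limma adjusted p = 0.0249). Ccl11, or eotaxin, which draws eosinophils to the gut through Ccr3, had 5.58, 5.91, 6.01, 6.20 and 6.57. All 5 arrays were in order, colon stood 0.99 log2 above whole mouse, and the slope was 0.91 (SE 0.12, limma adjusted p = 0.0129). Of 3 eosinophil markers measured, Prg2 and Epx fell and none rose. The other, Siglecf, was dim and went the other way without passing. It had 3.43 in whole mouse and 4.17 in colon (slope 0.60, limma adjusted p = 0.0845). The log2 summed signal of the 3 eosinophil markers was 7.75 in whole mouse and 6.25 in colon. The part of these cells in the values of Ccl11 was not tested.

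The other 12 genes of this group did not pass and were given no direction. Ccl5, an attractant of T cells and monocytes, came nearest, with 7.10, 7.10, 7.10, 7.45 and 7.65, higher at 75% and 100% colon than in the others (slope 0.57, SE 0.16, adjusted p = 0.0657). Ccl20, which is made by follicle-associated epithelium and read by Ccr6, had 6.08, 5.66, 6.17, 6.51 and 6.35 (adjusted p = 0.251). Ccl9, a myeloid attractant next to Ccl6 on the chromosome, was bright but spanned only 9.20 to 9.55. Ccl4 lay between 6.50 and 6.91, and Ccl24, a second eotaxin, between 7.13 and 7.47. Ccl2, the main monocyte attractant, lay between 5.22 and 5.74, with whole mouse highest. Slopes over the group ran from −0.29 to 2.89 with a median of 0.18.

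**Figure D2:**
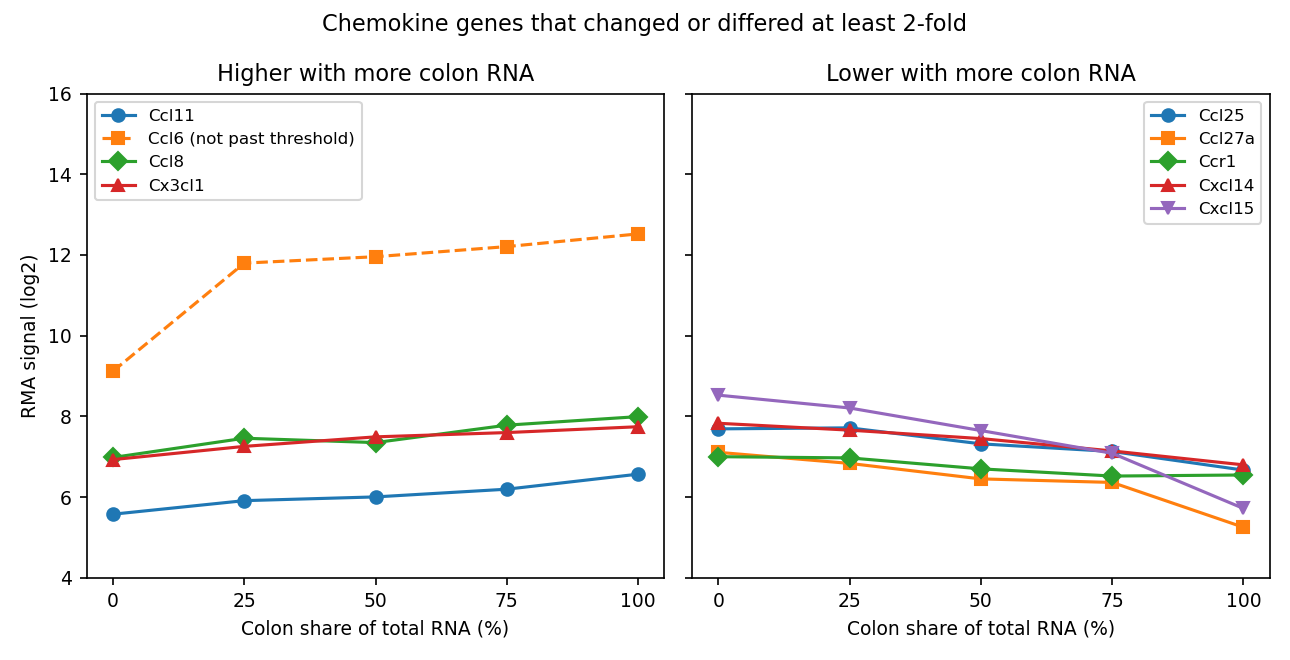
RMA signal (log2, vertical axis) against the colon share of total RNA (%, horizontal axis), 1 array per point, for genes that passed the limma test (solid) and Ccl6, which differed at least 2-fold without passing (dashed). Ccl6 goes from 9.12 to 11.80 in the first step, and Cxcl15 falls furthest, from 8.53 to 5.72.

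Of the 3 homeostatic CC ligands, 2 fell. Ccl25 is made by thymic and small intestinal epithelium and recruits cells bearing Ccr9. Its signals were 7.69, 7.72, 7.32, 7.13 and 6.67, close together in whole mouse and the 25% mix and lower from there, with a slope of −1.05 (SE 0.17, limma adjusted p = 0.0190). Ccl27a, the keratinocyte chemokine that draws Ccr10-bearing T cells to skin, had 7.11, 6.84, 6.45, 6.36 and 5.25, every step going down. Its slope was −1.67 (SE 0.30, limma adjusted p = 0.0253). Without the undiluted colon array it was −1.05. The Ccl27a probe set is of a type that can bind related transcripts, and near-identical Ccl27 copies exist. A pair of probe sets that the annotation gives to 5 genes of the Ccl27 family also went down, with slopes of −1.43 (8.42 to 6.87, adjusted p = 0.00699) and −1.25 (7.87 to 6.52, adjusted p = 0.00909).

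Ccl28, made by colon epithelium and read by Ccr10 on IgA-secreting cells, spanned only 5.57 to 5.90, highest in colon (slope 0.23, SE 0.13, adjusted p = 0.306). Its receptor Ccr10 had 7.54, 6.94, 7.12, 7.12 and 7.29, highest in whole mouse (adjusted p = 0.806). The 3 plasma cell markers had a log2 summed signal of 9.17 in whole mouse and 13.83 in colon, and none passed the limma test. The probe sets of Ccl21 (9 genes listed) and Ccl19 (10 genes listed), the ligands of Ccr7 in lymphoid tissue, could not be assigned to 1 gene. They had 9.44, 9.78, 9.68, 9.93 and 9.91 (adjusted p = 0.0976), and 7.60, 7.32, 7.14, 7.35 and 7.37 (adjusted p = 0.599).

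Among CXC ligands of the neutrophil type, only Cxcl15 passed, of 4. Cxcl15, or lungkine, is a mouse chemokine of lung epithelium. Its signals were 8.53, 8.21, 7.65, 7.09 and 5.72, and whole mouse stood 2.81 log2 above colon. The slope was −2.70 (SE 0.35, limma adjusted p = 0.0122). It was the one member that passed with each of the 5 arrays left out in turn, with slopes from −3.21 to −1.95. On the linear scale its mixes lay at 23.1%, 53.2% and 73.7% of the difference, near the mixed shares. Over the 1284 genes at least 2-fold lower in colon, the median shares were higher, at 36.0%, 62.9% and 80.6%. Cxcl1, Cxcl2 and Cxcl5, induced attractants of neutrophils through Cxcr2, were dim on all arrays, between 3.50 and 4.73. Neutrophil granule and S100 markers fell in 6 of 7 genes, with a log2 summed signal of 13.38 in whole mouse and 9.24 in colon.

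Of the 4 homeostatic CXC ligands, 1 fell and none rose, and for Cxcl12 and Cxcl13 the call depended on the probe set read. Cxcl14, an epithelial chemokine abundant in skin, had 7.83, 7.66, 7.45, 7.14 and 6.80 in its brightest probe set, with all arrays in order and a slope of −1.03 (SE 0.11, limma adjusted p = 0.00848). Its other probe set fell by 2.95, from 8.44 to 5.33 (adjusted p = 0.00426). Both fell, and the sizes differed by more than 1 log2. Keratinocyte markers were lower in colon as well, with a log2 summed signal of 15.10 in whole mouse and 8.64 in colon and 2 of 5 genes passing. Their part in the falls of Cxcl14 and Ccl27a was not tested.

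Cxcl12, the stromal ligand of Cxcr4 that retains blood cell precursors in marrow, was read differently by its probe sets. Its brightest probe set was level, with 9.39, 9.72, 9.57, 9.53 and 9.62 (slope 0.11, SE 0.16, adjusted p = 0.703). The other fell, with 9.42, 8.81, 8.41, 8.07 and 7.51 (slope −1.82, SE 0.12, limma adjusted p = 0.00393). With the mean of both, Cxcl12 fell by 0.86 (limma adjusted p = 0.00876). Cxcl13, which gathers B cells into follicles through Cxcr5, had 6.95, 6.84, 7.04, 7.08 and 7.40 in its brightest probe set (slope 0.46, adjusted p = 0.106). Its other probe set rose from 5.43 through 5.97, 6.41 and 6.43 to 6.96 (slope 1.41, SE 0.18, limma adjusted p = 0.0114). The mean of both rose by 0.93 (limma adjusted p = 0.0139). No B cell marker of 4 measured passed. Cxcl17, a mucosal ligand, had 7.84 in whole mouse and 7.20 to 7.49 elsewhere (adjusted p = 0.632).

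**Figure D3:**
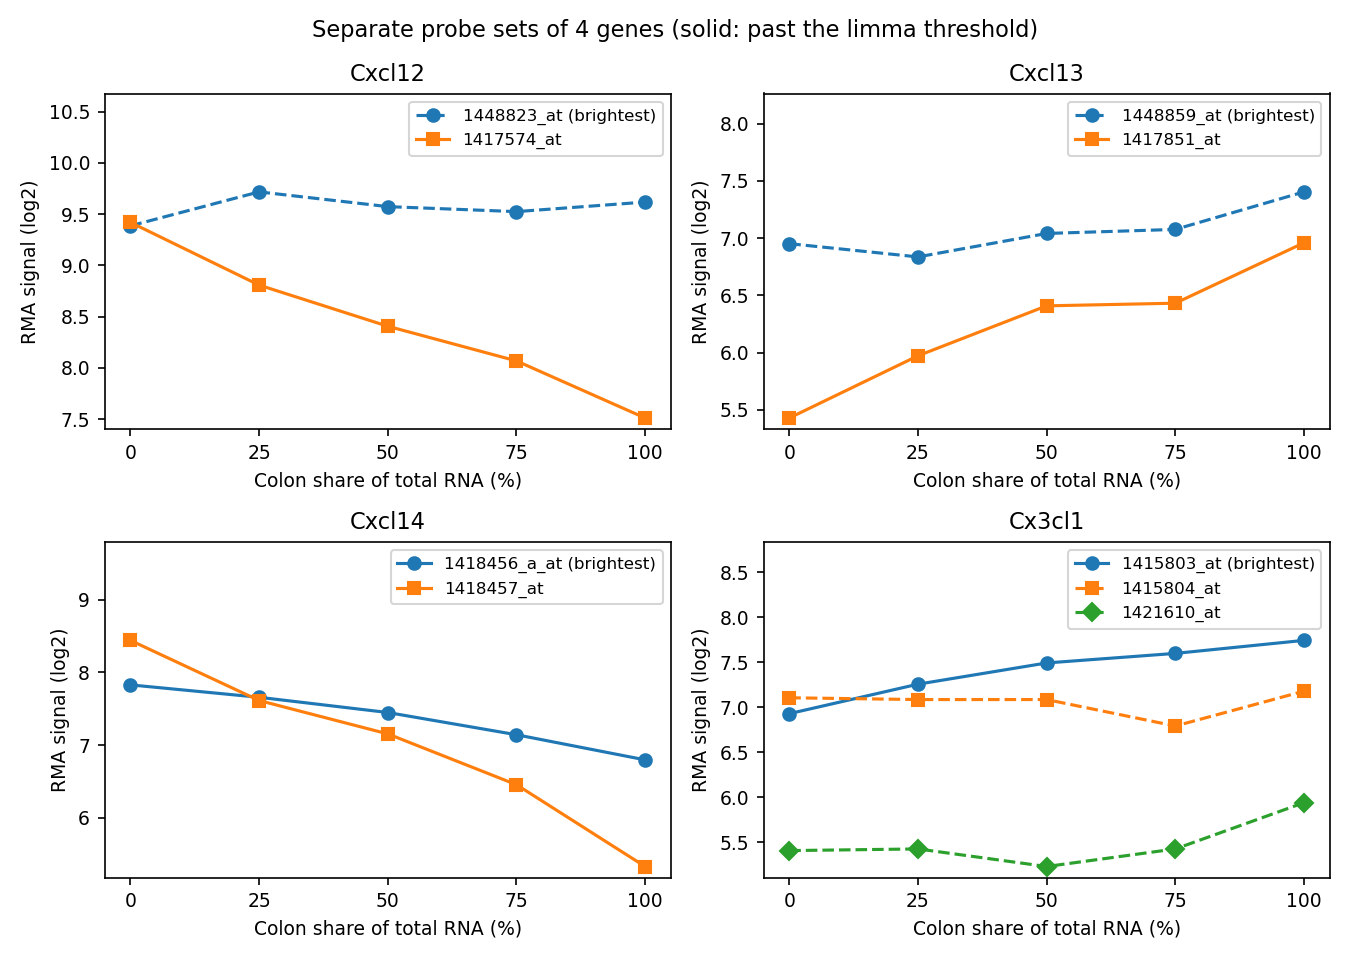
RMA signal (log2, vertical axis) against colon share (%, horizontal axis) for every probe set of Cxcl12, Cxcl13, Cxcl14 and Cx3cl1, 1 array per point, solid where the limma test was passed. From whole mouse to colon, 1 Cxcl12 probe set goes from 9.39 to 9.62 without passing and the other falls from 9.42 to 7.51.

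None of the interferon-induced ligands Cxcl9, Cxcl10 and Cxcl11, which attract T cells through Cxcr3, passed. They lay between 5.12 and 6.57 on all arrays, and their slopes between −0.05 and 0.23. RefSeq's table lists Cxcl11 in this strain as a transcribed pseudogene.

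Cx3cl1, or fractalkine, is a membrane-anchored ligand that is read by Cx3cr1 on gut macrophages. Its brightest probe set rose with 6.93, 7.26, 7.49, 7.60 and 7.74 in order, with a slope of 0.79 (SE 0.12, limma adjusted p = 0.0172). The rise rested on this probe set. The others had slopes of −0.06 (7.11 in whole mouse and 7.18 in colon) and 0.43 (5.41 and 5.94), and neither passed. Cxcl16, the other membrane-anchored ligand, spanned 7.42 to 7.66 (slope 0.22, adjusted p = 0.228), and Xcl1, made by killer and T cells, 5.04 to 5.23.

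The receptors gave 1 call. Of 16, none rose and Ccr1 fell, where 9.80% of all genes rose and 14.5% fell. None was 2-fold apart between the undiluted RNAs (9.26% of all genes were at least 2-fold higher in colon and 10.4% lower). All receptor signals lay between 4.16 and 7.54. In 14 of the 16 the signal lay below the array's median on every array, against 31.4% of all genes. Ccr1, a receptor of monocytes and neutrophils for Ccl3 and Ccl5, had 7.00, 6.97, 6.70, 6.52 and 6.55, lower in the 3 arrays with most colon. Its slope was −0.54 (SE 0.13, limma adjusted p = 0.0436), and its other, dim probe set stayed between 3.26 and 3.47. Ccr1 did not pass with any array left out, nor with the arrays centred on their medians (−0.46, adjusted p = 0.0636). Among macrophage markers 3 of 6 fell, with a log2 summed signal of 12.17 in whole mouse and 11.47 in colon. The part of these cells and of neutrophils in the fall of Ccr1 was not tested.

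The remaining CC receptors spanned at most 0.70 log2 each across the arrays. Ccr9, the partner of Ccl25, spanned 5.01 to 5.32 in its brightest probe set (slope 0.22, adjusted p = 0.331), and another of its 3 probe sets had a slope of −0.65 without passing. Ccr6, the partner of Ccl20, spanned 6.09 to 6.47. Ccr2 on monocytes lay at 4.16 to 4.31, Ccr3 on eosinophils at 4.61 to 4.96, and Ccr7 on T cells and migrating dendritic cells at 4.96 to 5.53. Ccr4, Ccr8 and Ccr1l1 did not pass either. None of the CXC and CX3C receptors passed. Cxcr3, the partner of Cxcl9 to Cxcl11, was highest in colon with 6.55 and lay between 6.20 and 6.27 elsewhere (adjusted p = 0.275). Cxcr4, the partner of Cxcl12, had 4.65, 4.49, 4.49, 4.38 and 4.38 (slope −0.26, SE 0.10, adjusted p = 0.144). Cxcr2 spanned 6.02 to 6.49, Cxcr5 4.47 to 4.60, and Cx3cr1 5.35 to 5.90, and Cxcr6 had 5.23 in whole mouse and at most 5.03 elsewhere. None of 5 T cell markers passed, with log2 summed signals from 8.65 to 9.05 over the arrays.

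Of 22 known pairs listed, both partners passed in none, where 16.7% of all members passed. Ccr1, the 1 of 16 receptors that passed, was paired with Ccl3 and Ccl5, neither of which passed. Ccl6 and Ccl8 were in none of the pairs. The 4 pairs whose ligand passed are given side by side. Ccl25 fell and Ccr9 did not pass, Ccl11 rose and Ccr3 did not pass, Ccl27a fell and Ccr10 did not pass, and Cx3cl1 rose and Cx3cr1 did not pass (slope −0.23, SE 0.22, adjusted p = 0.551). The difference between partners was not tested.

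Many chemokine genes sit in clusters, and calls fell on single genes as well as on neighbours. The order given is that of the genes measured here, and genes without a probe set of their own are left out of it. In chromosome order, 11 CC ligands on chromosome 11 run Ccl2, Ccl7, Ccl11, Ccl12, Ccl8, Ccl1, Ccl5, Ccl9, Ccl6, Ccl3, Ccl4. Ccl11 and Ccl8 rose on either side of Ccl12, which lay at 4.56 to 4.85 (slope 0.21, adjusted p = 0.329), and Ccl6 lies between Ccl9 and Ccl3, which did not pass. On chromosome 5 Cxcl15 follows Ppbp and Pf4 among the measured genes, and all 3 fell. Cxcl5 before them and Cxcl1, Cxcl2, Cxcl9, Cxcl10 and Cxcl11 after them did not pass. On chromosome 8 Cx3cl1 lies between Ccl22 (slope −0.21) and Ccl17 (slope 0.11), neither of which passed. On chromosome 9 Ccr1 was the only one called of 7 neighbouring receptors (Ccr9, Cxcr6, Xcr1, Ccr1, Ccr1l1, Ccr3 and Ccr2), and neither Cx3cr1 nor Ccr8, a separate pair on that chromosome, passed.

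**Figure D4:**
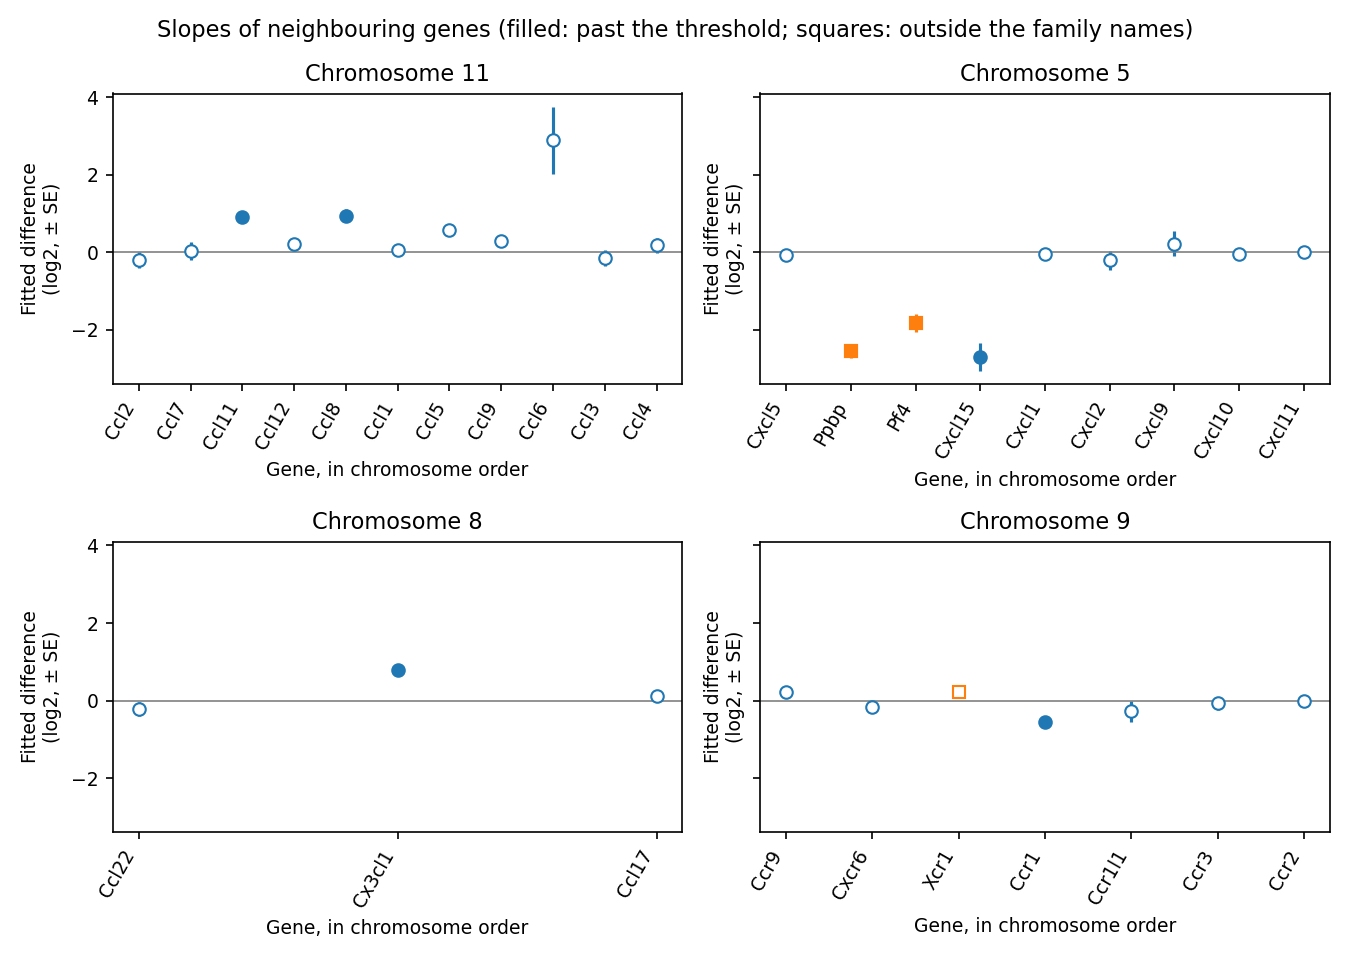
Fitted difference between colon and whole mouse (log2, vertical axis, ± SE from limma) of chemokine and receptor genes in chromosome order (horizontal axis) for 4 clusters; filled symbols passed, and squares are Ppbp, Pf4 and Xcr1, which the family naming leaves out. On chromosome 5 the called genes, Ppbp, Pf4 and Cxcl15, are adjacent among the genes plotted, with slopes of −2.54, −1.83 and −2.70.

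The genes around the chemokine system gave their own counts. Of 14 chemokine-binding or chemokine-like proteins outside the family names, 1 rose and 3 fell. Ppbp and Pf4, CXC chemokines stored in platelets, had slopes of −2.54 (SE 0.18, adjusted p = 0.0042) and −1.83 (SE 0.23, adjusted p = 0.011), and Cmtm3 fell by 1.86. Of 4 markers of platelets and megakaryocytes, 3 fell, Pf4 being one. The scavenging receptors Ackr1, Ackr2, Ackr3 and Ackr4 did not pass, and Rarres2, a chemerin precursor, lay between 10.40 and 10.76. Of 28 measured genes that carry or damp the signal below the receptors, 4 rose and 6 fell. Rgs1, which damps G protein signals in lymphocytes, rose by 1.71, while the arrestin Arrb2 (−1.59) and the exchange factor Tiam1 (−1.42) fell. The G protein subunit Gnb2 lay between 11.14 and 11.49.

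Of 18 factors that induce chemokines or regulate that induction, 5 rose and 1 fell. Nfkbia, an inhibitor of NF-kB and so not an inducer, was among those that rose (0.61). The interferon gamma receptor Ifngr1 (2.04) and the transcription factors Irf1 (2.03) and Relb (1.59) rose, while Cebpb fell by 0.70. Tnf, Il1b, Ifng and Il17a did not pass, and Tnfrsf1a lay between 10.06 and 10.31. Of 16 genes, for proteases and proteoglycans that cut or hold chemokines and for the heparan sulfate enzyme Ext1, 1 rose and 6 fell, Ext1 among them. Mmp9, a matrix protease of neutrophils, (−3.23), the heparan sulfate carrier Gpc1 (−2.72) and Mmp2 (−1.59) fell, whereas Sdc4 rose by 0.73. Sdc1, the brightest not passing, lay between 8.79 and 9.60. Counts in these 4 lists stand beside 9.80% of all genes rising and 14.5% falling.

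The order of the arrays gives a measure of how far the small values can be read. In 6 members all 5 values were in strict order, namely Ccl6, Ccl11, Cx3cl1, Cxcl14, Cxcl15 and Ccl27a. In 36 of 48 members (75.0%) some mix lay below both undiluted RNAs, where a linear mix would lie between them, against 46.4% of all genes. The 25% mix lay below both in 28 members (58.3%), against 25.6% of all genes. Among genes that did not pass, some mix lay below both in 87.5% of members and 59.9% of all genes. For the 25% mix these shares were 70.0% and 33.6%. The members were also dimmer, with 31 of 48 below the array's median on every array, against 31.4% of all genes. Genes of like signal were not compared. Of the 40 members that did not pass, 39 spanned less than 1 log2 over the arrays and 28 less than 0.5. A p above the threshold does not show that such a gene was equal in the 2 RNAs.

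Calls also moved when an array was left out, in fits with 1 residual degree of freedom fewer. Without the whole mouse array 1 member rose (Ccl6) and 3 fell (Ccl25, Cxcl14 and Cxcl15). Without the 25% mix 3 rose and 3 fell, and Ccl27a and Ccr1 did not pass. Without the 50% mix 3 rose and 2 fell (Cxcl14 and Cxcl15). Without the 75% mix 1 rose (Ccl11) and 3 fell (Cxcl14, Cxcl15 and Ccl27a). Without the colon array Cxcl15 alone passed. Over the same fits the share of all probe sets called went from 4.41% to 13.3%, and no slope of the 9 genes plotted above changed sign. Over the 5 fits the adjusted p ran from 0.0376 to 0.0876 for Ccl11, from 0.0385 to 0.145 for Ccl8 and from 0.0443 to 0.0743 for Cx3cl1. It ran from 0.0362 to 0.117 for Ccl25, from 0.0357 to 0.0926 for Ccl27a, from 0.0322 to 0.0602 for Cxcl14 and from 0.0789 to 0.131 for Ccr1.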

How the data were processed

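The labels' protocols describe 5 mixes of 2 pooled RNAs, each on 1 array. Per the submitters' processing notes, the authors deposited log2 signals made with RMA, which corrects background, quantile-normalizes and summarizes probes; the version is not stated in the sources used here. Quantile normalization sets the arrays to 1 distribution, so a change shared by most genes would not be seen. Tied values between arrays occurred in 9158 probe sets. The 64 control probe sets were left out. Annotation gave 20380 probe sets 1 gene, 691 several and 1555 none listed, and symbols were updated by gene identifier through RefSeq (GRCm38.p6), where all 65 member probe sets matched.

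The log2 signal was regressed on colon share (0 to 1) with limma 3.58.1 in R 4.3.3 over all 22626 probe sets, with eBayes, 3 residual degrees of freedom, 2-sided p-values and Benjamini-Hochberg adjustment. The fit was tested on simulated data. Differences between the undiluted RNAs, and shares reached by the mixes on linear signals, were described without a test. Members, gene lists and motifs were chosen with earlier results of these data known. Values on all arrays were given for members that passed or differed at least 2-fold. The 10 brightest other members were named with their range, and in each companion list the 3 largest changes and the brightest gene not passing. A further choice of 5 promoters, and the reading of each other probe set alone, were made after seeing the data. Lists of 5 thymocyte, 4 dendritic cell, 4 NK cell, 5 mast cell, 5 blood endothelial, 3 lymphatic endothelial, 5 fibroblast and 4 brain markers were also counted: 1, 1, 1, 5, 3, 1, 2 and 1 passed. The number of arrays limits the precision.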

Additional observations from a re-analysis of the deposited data

How the results depend on the processing

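No paired analysis was possible because each mix had 1 array and the labels carry no replicate numbers. Leaving out each array in turn gave between 0 and 3 rising members and between 1 and 3 falling, against 3 and 5, in fits with fewer samples. Centring the arrays on their medians shifted slopes by 0.08 log2, turned the sign of 6 members' slopes, none of which passed, and gave 5 rising (Ccl5 and Ccl6 added) and 4 falling, with 3 members at least 2-fold higher in colon in place of 2, and 2 at least 2-fold lower in place of 4. Leaving out the 25% of probe sets with the lowest mean signal (31 members kept) and eBayes with trend and robust changed none of the 8 calls, and linear signals lost Ccr1. With the mean of a gene's probe sets, Ccr1 and Cx3cl1 did not pass, and Cxcl12 (slope −0.86, its sign turned) and Cxcl13 did. Read from another probe set, the slope was −0.059 (SE 0.19) for Cx3cl1, which did not pass, and −1.82 for Cxcl12, which did. Both had the sign opposite to that of the brightest probe set, and the cause was not tested. In Ccr2, Ccr9, Cxcl11 and Cxcr6 another probe set also had the opposite sign, and no probe set of these genes passed. On the log2 scale the median share reached at 25% colon was 62.9%, against 47.5%, over the 2 members at least 2-fold higher in colon (Ccl6 and Ccl8), and 13.0%, against 22.5%, over the 4 at least 2-fold lower.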
